A study of Homo sapiens with 6 samples.

Results

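Signalling through the kinase ERK switches on genes whose products hold the same pathway back, together with other direct targets, and 10 such feedback and target genes were followed in ES2 cells with and without the enzyme UAP1. ES2 is an established human ovarian cancer cell line, labelled high-grade serous carcinoma and grown in DMEM with serum. Control libraries came from cells transfected with a control siRNA (genotype labelled WT), and siUAP1 libraries from cells transfected with UAP1 siRNAs (labelled UAP1 knockdown). Both groups received the same lipid reagent, a medium change at 6 hours and RNA isolation at 48 hours, and each had 3 libraries. The labels give a pair of UAP1 siRNAs but not whether they were pooled, and they do not state whether replicates were separate cultures, so the spread between libraries may be technical. Library names carry a code that the control and siUAP1 libraries of one replicate number share, which the labels do not explain. The genes were taken by name from the gene count table: ETV1, ETV4, ETV5, DUSP4, DUSP5, DUSP6, SPRY2, SPRY4, SPRED2 and PHLDA1, 10 of 58735 genes. All 10 had enough counts to be among the 15768 genes tested.

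In the ERK pathway, growth factor receptors load RAS with GTP, and RAF, MEK and ERK kinases then act in turn. Active ERK raises transcription of the ETS factors ETV1, ETV4 and ETV5, in part by relieving repression by Capicua, and of genes that restrain it. Sprouty and SPRED proteins act at the level of RAS and RAF, and the dual-specificity phosphatases (DUSPs) remove phosphate from ERK itself. Levels of these transcripts are therefore widely read as a record of recent ERK output, and ES2 cells are known to carry an activating BRAF mutation.

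The knockdown and the sequencing depth bound what follows. UAP1 made up 345.3, 357.0 and 444.4 CPM (counts scaled to the TMM-adjusted library total, the common unit of count level used below) in control replicates 1 to 3 and 21.8, 23.3 and 25.2 CPM in siUAP1 replicates 1 to 3. Libraries held between 21267240 and 25972582 counts. Of 12 ovarian carcinoma and epithelial markers only 5 were tested, PAX8 was at 1.01 CPM and WT1 at 2.02 CPM in control libraries, and MUC16, FOLR1 and SOX17 had no counts in any library, so those defining markers of the labelled cell type were absent or near absent. Of the 5 tested, 3 keratin genes (KRT7, KRT8 and KRT18) rose in the fit with pairs, and the whole list summed to between 797.9 and 895.6 CPM in control and between 1118 and 1419 CPM in siUAP1 libraries. Leukocyte markers summed to at most 1.21 CPM in any library (0 of 7 tested, CD3E among those at 0). Stromal fibroblast markers summed to between 780.1 and 1462 CPM in control and between 1370 and 2376 CPM in siUAP1 libraries, mostly from COL1A1, with DCN at 0. Of these 6 markers, 4 were tested and 3 rose in the fit with pairs. The part of these markers in the results below was not tested, and in bulk RNA fewer cells of a type and less RNA per cell cannot be told apart.

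Sequences are shown for 3 of the members that fell, and the part of these stretches in the changes was not tested. The first is a stretch of the ETV5 3′ UTR, on the minus strand at chr3:186047791-186047820 (GRCh38, transcript model of GENCODE release 29). Its capitals mark the place where 4 words of 7 bases overlap, each among the 5 words whose carrier genes lay lowest in siUAP1 libraries (described with the closing observations).
ETV5 site: tttaaagcaaAAAAACGAAAaacaaaaaac
The second is the 250 bases before a SPRY2 start that RefSeq lists, on the minus strand at chr13:80341127-80341376. The third is a stretch before the DUSP6 start that RefSeq lists, on the minus strand at chr12:89352617-89352646. Both are from RefSeq on GRCh38.p14. The SPRY2 start used lies upstream of the gene as annotated with the counts, whose upstream end is at 80340951. The DUSP6 stretch lies inside the longest GENCODE model of the gene, which starts further upstream. Capitals mark an ETS core word (CCGGAA) in SPRY2 and the core of the Capicua word (TGAATG) in DUSP6. Only this core was searched, not the full Capicua word, and binding was not tested. The full word adds AA or GA to this core, and the DUSP6 stretch continues with AC instead.
SPRY2 promoter: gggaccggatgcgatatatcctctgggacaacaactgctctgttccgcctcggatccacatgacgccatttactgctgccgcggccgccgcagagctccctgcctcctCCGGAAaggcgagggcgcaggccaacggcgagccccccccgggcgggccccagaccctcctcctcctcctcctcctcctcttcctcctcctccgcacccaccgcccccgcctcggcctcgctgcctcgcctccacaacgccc
DUSP6 promoter stretch: tttccgtttttgTGAATGacaaactcatta
Promoter entries were matched for 6 members (ETV1, DUSP6, SPRY2, SPRY4, SPRED2 and PHLDA1), which have 14 listed starts between them. CCGGAA, searched on both strands in the 250 bases before each start, was present at 5 of these 14 (ETV1, PHLDA1 and SPRY2) and at 14.5% of all 35116 promoters. TGAATG was present at 3 (DUSP6, ETV1 and SPRED2) and at 9.92% of all promoters. The AP-1 word TGACTCA was at 0 of the 14 and at 4.2% of all. CCGGAA and TGAATG were each present in a member that fell (SPRY2 and DUSP6) and in members that were not called (ETV1, PHLDA1 and SPRED2). SPRY4, which also fell, held none of these words. Starts of the same gene were counted separately, so the shares are not per gene.

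Levels of different members are compared per gene length, as the FPKM that the authors deposited. DUSP5, a nuclear phosphatase selective for ERK, stood at 85.7, 57.8 and 70.7 FPKM in control replicates 1 to 3, and SPRY2 at 71.1, 55.6 and 50.9 FPKM. Their ranges overlapped, although DUSP5 was above SPRY2 within each of the 6 libraries. PHLDA1, a pleckstrin homology-like protein, followed at 40.9 ± 5.08 FPKM (SD, n = 3) and was below both in every control library. DUSP6 (22.2 ± 2.40) and ETV5 (20.2 ± 2.35) overlapped each other. At the low end, DUSP4 (13.6 ± 3.54), ETV1 (11.9 ± 0.186), SPRED2 (11.4 ± 0.467), ETV4 (10.4 ± 0.730) and SPRY4 (10.1 ± 1.13) each overlapped the next in this order. In siUAP1 libraries ETV5 was at 11.1 ± 0.586 FPKM, among the low members, and SPRY4 had the lowest mean (7.70 ± 0.693 FPKM), overlapping ETV4 (9.09 ± 1.39 FPKM), which was below it in replicate 1 of both groups.

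**Figure D1:**
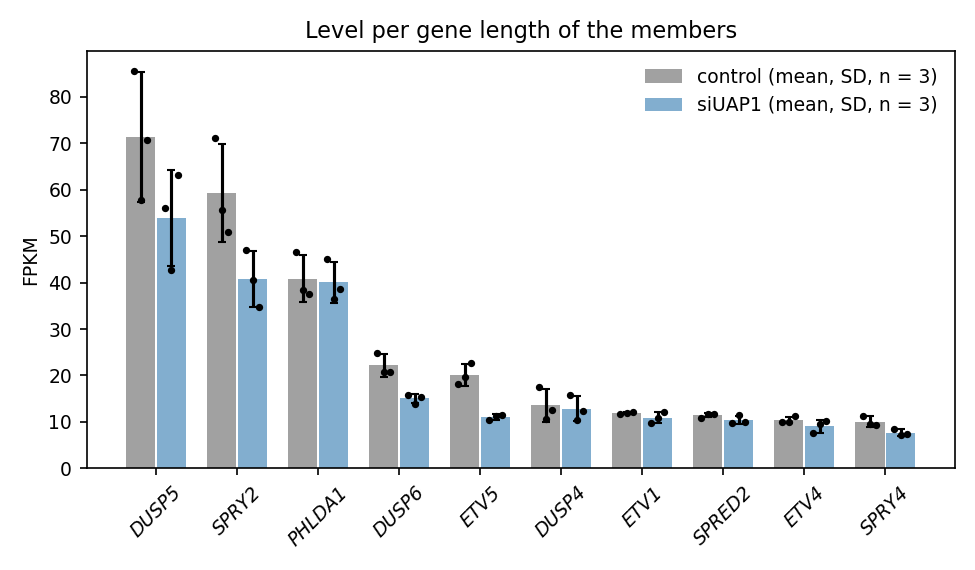
FPKM (scaled to gene length and library size) of the 10 members, ordered by their control mean; bars are means of 3 libraries, error bars SD and points single libraries. DUSP5 and SPRY2 are the most abundant at 71.4 and 59.2 FPKM in control, and SPRY4 the least at 10.1 FPKM.

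Of the 10 members, 5 fell with UAP1 knocked down (ETV5, DUSP6, SPRY2, DUSP5 and SPRY4) and 5 were not called, in an edgeR fit that compares siUAP1 with control within each of the 3 replicate numbers. In that fit, 7.14% of all tested genes were called lower, 9.07% higher and 16.2% in either direction (Benjamini-Hochberg adjusted p under 0.05 over all genes). The fit on the groups alone called 1 member, ETV5, where 0.0761% of tested genes were called lower and 0.108% in either direction. In it 5 members had an unadjusted p under 0.05, as had 7.13% of all genes. The groups' CPM did not overlap in 4 members, all lower with siUAP1, as in 5.71% of tested genes. The members' median log2 change was -0.29 in both fits, beside -0.003 over all genes tested. In the fit with pairs all 10 changes were below 0, as were those of 7996 of the 15768 genes tested. Of the members, 8 were lower in every pair, beside 23.6% of all genes. The members were chosen with earlier results of these data known, so these shares do not test the members as a set. Below, "fell" and "rose" refer to the fit with pairs, whose p-values rest on the numbers pairing the libraries. The fit on the groups alone was set as the main one, because the labels state no block. The pairing was taken from correlations within these same libraries, beside the code shared in their names.

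**Figure D2:**
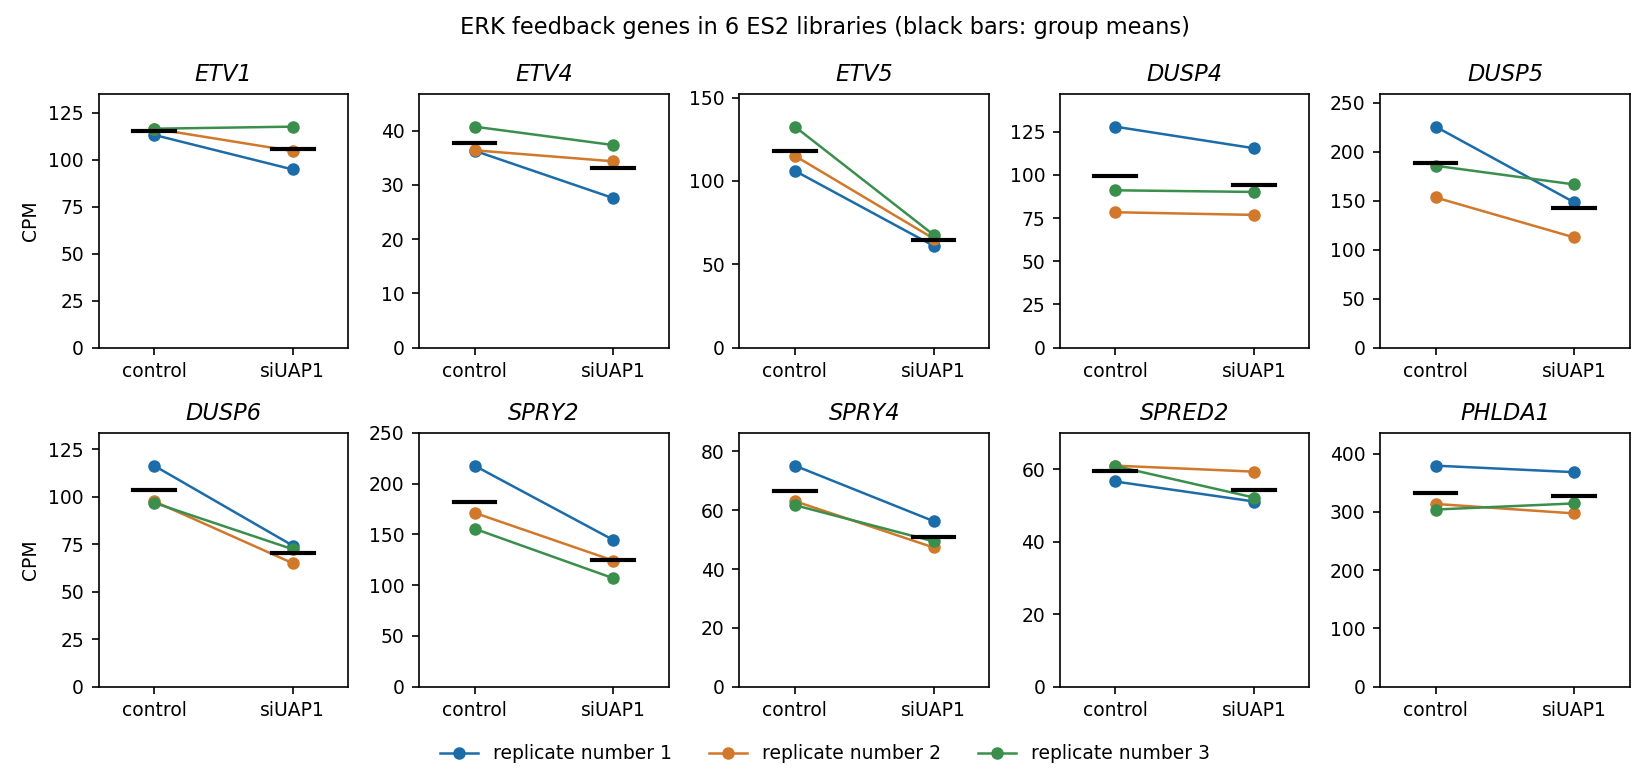
CPM of each member in the 3 control and 3 siUAP1 libraries, on axes that start at 0; lines join libraries with the same replicate number and black bars are group means. ETV5, DUSP6, SPRY2 and SPRY4 lie lower in all 3 siUAP1 libraries than in any control library, and DUSP5 falls along each line although the groups overlap.

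Among the ETS factors, ETV5 fell and its close relatives ETV1 and ETV4 were not called. ETV5 (ENSG00000244405, GRCh38 chromosome 3, 186046308 to 186110318, minus strand) was at 106.1, 115.1 and 132.6 CPM in control replicates 1 to 3 and at 61.1, 65.5 and 67.7 CPM in siUAP1 replicates 1 to 3. The groups were far apart, and siUAP1 libraries differed less among themselves than control libraries did. Within the pairs ETV5 changed by -42.4%, -43.1% and -48.9%, and its log2 change was -0.86 (SE 0.0529, edgeR adjusted p = 2.14e-11), which 147 of all tested genes matched or exceeded downwards. On the groups alone the value was the same (-0.86, SE 0.108, adjusted p = 0.0453). That call on the groups alone ended when any 1 library was left out (adjusted p between 0.0821 and 0.206), although the log2 change stayed between -0.94 and -0.77.

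Part of the ETV5 gene shares 164 exonic bases with DGKG on the same strand, whose mean was 11.98 CPM with control siRNA and 11.46 CPM with siUAP1, so its counts are slightly uncertain. ETV5 was also the only member whose 3′ UTR held any of the 5 low words, and its 4 overlap as 1 run, the 10 capital bases shown above. At least 1 of the 5 lay in the 3′ UTR of 13.5% of genes searched, and a single carrier among the 10 members is near that share. The words were ranked on changes that include that of ETV5. The sources used here do not give the siRNA sequences, so a match between them and this site was not tested, and the part of the site in the fall of ETV5 was not tested.

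ETV1 (chromosome 7, 13891228 to 13991425, minus strand) was at 113.3, 116.6 and 116.6 CPM in control and at 94.9, 104.7 and 117.7 CPM in siUAP1 libraries, with the third siUAP1 library above all controls. Its log2 change was -0.13 (SE 0.0533, adjusted p = 0.101). ETV4 (chromosome 17, 43527844 to 43579620, minus strand) was at 36.3, 36.4 and 40.8 CPM in control and at 27.6, 34.4 and 37.4 CPM in siUAP1 libraries, so that the groups overlapped. It changed by -0.20 (SE 0.0725, edgeR adjusted p = 0.0679), and it shares 68 exonic bases with DHX8 on the opposite strand. Set side by side within pairs, the log2 change of ETV5 was lower than that of ETV1 by 0.54, 0.66 and 0.98, and than that of ETV4 by 0.40, 0.73 and 0.84. The mean differences were -0.73 ± 0.23 and -0.66 ± 0.23 (SD, n = 3 pairs, exact two-sided sign-flip p = 0.25 for both). That p is the smallest that 3 pairs allow and says no more than that the pairs share a sign.

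Among the phosphatases, DUSP6 and DUSP5 fell, and DUSP4 was not called. DUSP6 (chromosome 12, 89347232 to 89353271, minus strand), the cytoplasmic phosphatase selective for ERK, was at 116.3, 97.6 and 96.8 CPM in control and 74.2, 65.0 and 72.3 CPM in siUAP1 libraries. Every siUAP1 library was below every control library. DUSP6 changed by -36.2%, -33.4% and -25.3% within the pairs, with a log2 change of -0.55 (SE 0.0542, edgeR adjusted p = 4.31e-08), against adjusted p = 0.143 on the groups alone. An antisense gene, AC024909.2, shares 1875 exonic bases with DUSP6 but had at most 17 counts in any library.

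DUSP5 (chromosome 10, 110497838 to 110511544, plus strand) was at 225.6, 153.3 and 185.7 CPM in control and 148.3, 112.5 and 166.6 CPM in siUAP1 libraries. The third siUAP1 library was above the second control library, and the fall within pairs was uneven: -34.2%, -26.6% and -10.3%. Its log2 change was -0.40 (SE 0.0599, edgeR adjusted p = 2.47e-05), or adjusted p = 0.695 on the groups alone. DUSP4 (chromosome 8, 29333064 to 29350668, minus strand), an inducible nuclear phosphatase, was at 128.0, 78.4 and 91.1 CPM in control and 115.5, 76.9 and 90.2 CPM in siUAP1 libraries. Its values followed the replicate number rather than the siRNA, with replicate 1 high in both groups, and its log2 change was -0.07 (SE 0.0509, adjusted p = 0.45). Within pairs the change of DUSP6 was lower than that of DUSP4 by 0.50, 0.56 and 0.40, and that of DUSP5 lower by 0.46, 0.42 and 0.14. The means were -0.49 ± 0.0777 and -0.34 ± 0.172 (SD, n = 3 pairs, exact two-sided sign-flip p = 0.25 for both).

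SPRY2 and SPRY4 fell, while SPRED2 was not called. The remaining sproutys, both below 10 CPM, were not called either: SPRY1 changed by -0.19 (adjusted p = 0.484) and SPRY3 by 0.32 (edgeR adjusted p = 0.212), and both were named after their values were seen. SPRY2 (chromosome 13, 80335976 to 80340951, minus strand), which blocks the passage from receptors to RAS and RAF, was at 217.6, 171.2 and 155.5 CPM in control and 144.5, 124.2 and 106.8 CPM in siUAP1 libraries. The groups did not overlap, and replicates 1 to 3 stood in the same order in both. SPRY2 changed by -33.6%, -27.4% and -31.3% within the pairs (log2 change -0.53, SE 0.048, edgeR adjusted p = 1.08e-08, or 0.357 on the groups alone). SPRY4 (chromosome 5, 142310427 to 142326455, minus strand), which also inhibits RAS and RAF signalling, was at 75.2, 63.1 and 61.7 CPM in control and 56.3, 47.4 and 49.4 CPM in siUAP1 libraries, again with no overlap. Within the pairs it changed by -25.1%, -24.96% and -19.9% (log2 change -0.38, SE 0.0561, edgeR adjusted p = 1.88e-05, or 0.384 on the groups alone).

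SPRED2 (chromosome 2, 65310851 to 65432637, minus strand), an EVH1-domain relative of the sproutys, was at 56.6, 61.0 and 60.9 CPM in control and 51.1, 59.4 and 52.2 CPM in siUAP1 libraries. The second siUAP1 library lay within the control range, and the log2 change was -0.14 (SE 0.0579, edgeR adjusted p = 0.119). Within pairs SPRY2 was lower than SPRED2 in log2 change by 0.44, 0.42 and 0.32 and SPRY4 by 0.27, 0.37 and 0.10. The means were -0.39 ± 0.0658 and -0.25 ± 0.139 (SD, n = 3 pairs, exact two-sided sign-flip p = 0.25 for both). These were the last of 6 such contrasts between relatives, all with the same exact p, which adjustment over the 6 leaves at 0.25. Each contrast set a member that fell against a relative that was not called in the same data, and that choice favours a shared sign.

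PHLDA1 (chromosome 12, 76025447 to 76033932, minus strand), which is induced by ERK and often scored with the other members, was at 379.3, 313.6 and 304.0 CPM in control and 368.1, 297.3 and 314.5 CPM in siUAP1 libraries. The groups overlapped almost fully. Its log2 change of -0.02 (SE 0.0464, edgeR adjusted p = 0.797) was the smallest of the 10. Replicate number 1 was the highest in both groups for PHLDA1, DUSP4, DUSP6, SPRY2 and SPRY4, and the lowest in both for ETV4, ETV5, ETV1 and SPRED2, so the members did not vary together between replicates.

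**Figure D3:**
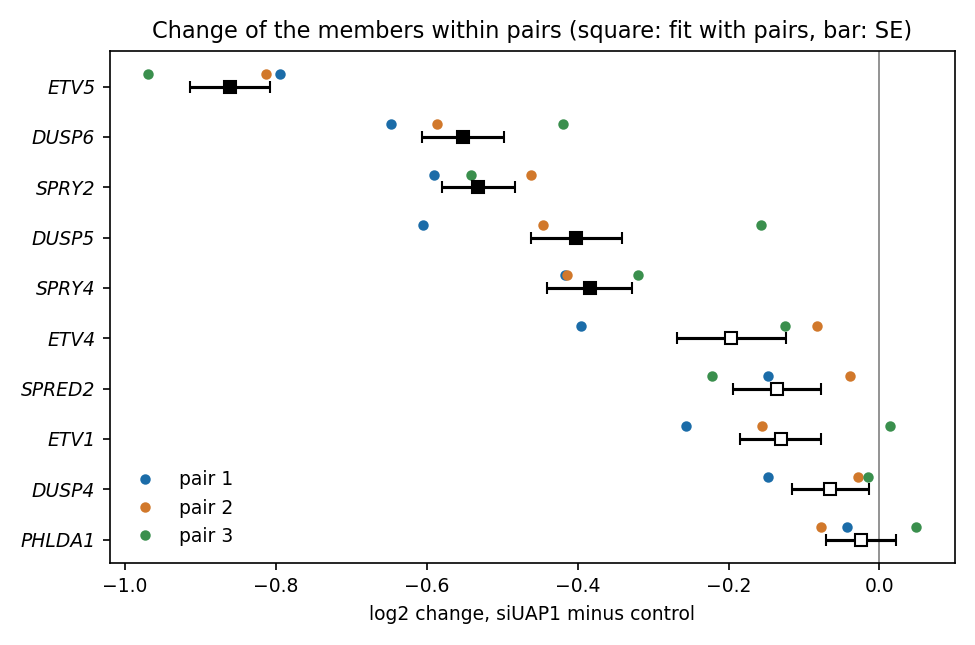
Log2 change of each member, siUAP1 minus control, in the fit with pairs (squares, with bars of 1 SE; filled where adjusted p is under 0.05) and in each of the 3 pairs (coloured points, from log CPM). ETV5 is lowest at -0.86, the 4 other filled squares lie between -0.55 and -0.38, and the 5 open squares lie between -0.20 and -0.02.

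Genes whose CPM over the 6 libraries ran closest to a member were found by the root mean square distance of centred log2 CPM, over 10340 protein-coding genes of at least 5 CPM. For ETV5 these were TRMT6 (distance 0.0943), NCEH1 (0.0960) and the collagenase gene MMP1 (0.106). Among the nearest to DUSP6 were XDH (0.0627) and LGR5 (0.0725). HOXB9 (0.0272), CRELD2 (0.0448) and N6AMT1 (0.0464) lay nearest to SPRY4. Among the members themselves the closest were ETV1 with ETV4 (0.0795) and DUSP6 with SPRY4 (0.0948). The distances describe these 6 libraries, which share pairs and groups.

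Other genes of the pathway were read from lists written with the earlier results known, beside the 9.07% of all tested genes that rose and the 7.14% that fell. Among 17 tested sprouty, SPRED and other feedback genes, 8 fell (47.1%) and 2 rose (11.8%), with a median log2 change of -0.19. The RAS GTPase-activating genes RASA1 (-0.41, SE 0.0515, adjusted p = 2.1e-06) and RASA2 (-0.45, SE 0.0604) fell, as did ERRFI1, an inhibitor of the EGF receptor (-0.30), whereas SOCS3, a brake on cytokine receptors, rose (0.40). RASA1 shares exonic bases with CCNH on the opposite strand and is uncertain. SPRED1 (-0.25), DUSP7 (-0.24) and IL17RD, an inhibitor of FGF signalling also called SEF (-0.43), fell too and were named after their values were seen. On the groups alone, the calls in this list and those below were MMP1 and ESM1.

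Of 11 tested genes in a list of stress kinase and other MAP kinase phosphatases and their relatives, 1 rose (9.09%) and 10 were not called, with a median of 0.04. That share was near the one over all genes. DUSP3 rose (0.21, SE 0.0488, edgeR adjusted p = 0.0037), and DUSP16 (-0.15, adjusted p = 0.141) and DUSP10 (0.24, adjusted p = 0.141) were not called. In the core from RAS to ERK, 4 of 32 tested genes rose (12.5%), 3 fell (9.38%) and 25 were not called, with a median of 0.03, so the shares were near those over all genes. RRAS2, a RAS relative, rose (0.34), while the kinase genes BRAF (-0.40, SE 0.0607, adjusted p = 2.71e-05), RPS6KA2 (-0.31) and MAP2K1 (-0.22) fell. BRAF shares 1239 exonic bases with NDUFB2 on the opposite strand, at 61.9 CPM in control beside 63.8 CPM for BRAF, and MAP2K1 shares 216 with SNAPC5, so both are uncertain.

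Upstream, 5 of 17 tested receptors rose (29.4%), 1 fell (5.88%) and 11 were not called, with a median of 0.12. The collagen receptor genes DDR1 (0.65, SE 0.0612, edgeR adjusted p = 2.18e-08) and DDR2 (0.19) and the PDGF receptor gene PDGFRB (0.95) rose, and EPHA4, an ephrin receptor often counted with ERK targets, fell (-0.24). Of 19 tested ligands, 3 rose (15.8%) and 6 fell (31.6%), with a median of -0.03. Those of the EGF receptor differed: HBEGF fell from 109.9 to 69.8 CPM (-0.64, SE 0.0551, edgeR adjusted p = 5.44e-09), and EREG rose from 87.8 to 159.5 CPM (0.74, SE 0.0665). The EREG groups overlapped, at 168.7, 63.0 and 31.7 CPM in control and 339, 91.4 and 48.1 CPM in siUAP1 replicates 1 to 3. AREG fell at a low level (2.865 to 1.70 CPM, -0.74) and BTC was not called (-0.03), both named after their values were seen. FGF5 fell (-0.56) and IL6 rose from a low level (0.847 to 2.89 CPM), with exonic bases shared with STEAP1B (31.8 CPM in control) that make IL6 uncertain.

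Of 22 tested ERK-responsive transcription factors, 3 rose (13.6%) and 6 fell (27.3%), with a median of 0.02. EGR1, an immediate early gene, fell from 22.0 to 12.5 CPM (-0.82, SE 0.0971, edgeR adjusted p = 1.03e-06), MAFF (-0.39) and KLF6 (-0.31) fell, and ID1 rose (0.57). FOSL1, an AP-1 subunit kept high by ERK (0.11, adjusted p = 0.13), MYC (-0.04, adjusted p = 0.603) and the repressor gene CIC, which encodes Capicua (0.14, adjusted p = 0.0887), were not called. Among 14 other ETS factors, 3 (21.4%) rose (ETV6, a repressor, by 0.43; ELF4 by 0.41; ETS1 by 0.27) and 1 (7.14%), FLI1, fell (-0.20), with a median of 0.05. Of 28 tested effector genes, 9 rose (32.1%) and 10 fell (35.7%), with a median of 0.001. The secreted proteins MMP1 (-0.88, SE 0.0495) and ESM1 (-0.86) and the anti-apoptotic BCL2A1 (-1.67, SE 0.113) fell, and thrombospondin 1 (THBS1, 0.66) rose.

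Cyclin D1 (CCND1), a textbook ERK target, rose by 0.24 (SE 0.0466, edgeR adjusted p = 0.000567), and the receptor gene EPHA2 was not called (0.01, adjusted p = 0.9). CCND1 shares exonic bases with LTO1, at 93.3 CPM beside 796.2 CPM in control, and is uncertain. FOSL1, MYC, CIC, CCND1 and EPHA2 were named after their values were seen.

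**Figure D4:**
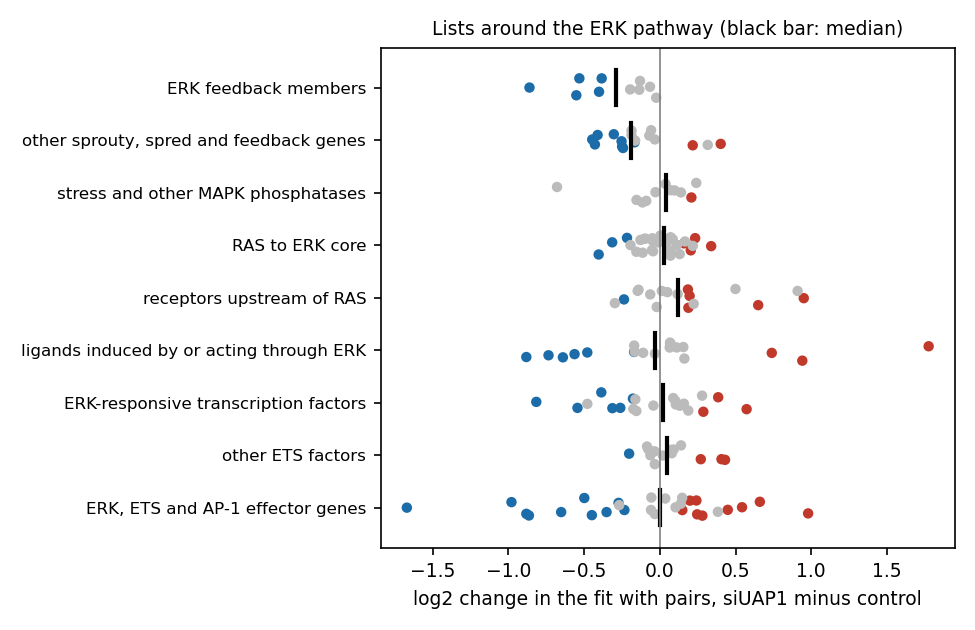
Log2 change in the fit with pairs for the tested genes of 9 lists around the ERK pathway; each point is a gene, blue where it fell, red where it rose and grey where it was not called, and black bars are medians. The 10 members (median -0.29) and the other feedback genes (-0.19) have the lowest medians, and the remaining lists lie between -0.03 and 0.12. Members and lists were chosen with earlier results of these data known.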

How the data were processed

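RNA was sequenced from 3 control and 3 siUAP1 libraries of ES2 cells on an Illumina NovaSeq instrument. The authors deposited raw counts per gene, and FPKM (scaled to gene length and library size) for the same genes. The submitters' processing notes name GRCh38.p12 and DESeq2. The sources used here name no aligner or counter and do not say whether strand was used. Groups and replicate numbers were read from the titles. Every pair of replicates in a group differed beyond sampling of counts (a chi-square of at least 26.4 per degree of freedom, over genes with at least 40 counts).

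Genes were kept by filterByExpr (minimum count 10), scaled by TMM and tested with edgeR 4.0.16 (R 4.3.3), using its quasi-likelihood test with group as the one term and a threshold of 0.05 after Benjamini-Hochberg adjustment over every tested gene. This fit on the groups alone was set as the main one, because the labels state no block. A second fit, with the replicate number as a block, gave the calls worded as "fell" and "rose" in the results. Numbers were taken to pair libraries because deviations from group means correlated at 0.552, 0.454 and 0.584 for equal numbers, each over 0.1. Per the labels, a code in the library name is common to both libraries of a number. On simulated counts for 15768 genes, the fit without pairs recovered 53% and the fit with pairs 99% of 2-fold changes. For 1.5-fold changes these shares were 0% and 81%. The simulation gave each gene an effect shared within a replicate number and changed well-counted genes alone. Sizes of that effect and of the remaining spread were fixed values, not estimated from these libraries. The gain of the fit with pairs was therefore built in, and these shares do not test whether the real libraries are paired. Pair values use log CPM with prior count 2.

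Named genes were UAP1, all 10 members, up to 4 called genes of each list (with under 2 calls, the 2 uncalled genes with the lowest p) and the 3 nearest genes to ETV5, DUSP6 and SPRY4; some genes under these rules are not reported here. Members and lists were chosen with earlier results of these data known. Alternatives were RLE or no scaling, other filters, protein-coding genes alone, DESeq2 1.42.0, limma-voom (limma 3.58.1), limma on log2(FPKM + 1) or log2(FPKM + 0.1), where changes are on that log2 scale, and leaving out each library or pair.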

Additional observations from a re-analysis of the deposited data

How the results depend on the processing

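ETV5, DUSP6, SPRY2, DUSP5 and SPRY4 stayed below 0 in all 17 fits without and all 9 fits with pairs, and all 5 were called in each of those 9. On the groups alone, the count of called genes (17, 1 of them a fallen member) became 273 (3 members: ETV5, DUSP6 and SPRY2) with no filter beyond 1 count, 165 (2: ETV5 and DUSP6) with DESeq2, and 2, 3 and 1 (0 members) with log2(FPKM + 1), log2(FPKM + 0.1) and unfiltered log2(FPKM + 1). Leaving out 1 library left 1 to 3 genes and 0 members. With the replicate block it was 2556 (5 members), and within the block 2539 with RLE factors, 2587 with library totals, 1311 with DESeq2 and 2545 with limma-voom (5 each), and 2697 with protein-coding genes (6, adding ETV4). Leaving out pair 1, 2 or 3 gave 2204, 1987 and 1195 genes and 5 to 6 members, the 6th being ETV4 without pair 2. Leaving out 1 library moved DUSP4 between -0.25 and 0.15 and PHLDA1 between -0.12 and 0.0792. With 1 library left out, values also moved over 1.5 times for DUSP5 (-0.25 without control replicate 1, -0.26 without siUAP1 replicate 2), ETV4 (-0.08) and ETV1 (-0.05), the last 2 without siUAP1 replicate 1. Without siUAP1 replicate 3 ETV1 was at -0.21 and without siUAP1 replicate 2 SPRED2 at -0.21. Within the block, ETV1 was at -0.07 and ETV4 at -0.10 without pair 1, and ETV1 at -0.21 without pair 3. DUSP4 turned positive without control replicate 1 (0.15) or siUAP1 replicate 2 (0.05), and PHLDA1 without control replicate 1 (0.0792), siUAP1 replicate 2 (0.04), siUAP1 replicate 3 (0.0028) or, with the replicate block, pair 2 (0.0015); neither was called in any fit. The causes were not tested. With 3 pairs, exact tests of single differences cannot go below p = 0.25.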

Other observations

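The 3′ UTR words were found in the longest annotated 3′ UTR (GENCODE release 29) of 12576 tested protein-coding genes. For each of 12889 words of 7 bases held by at least 300 genes, the median log2 change (fit with pairs) of genes with the word was set beside that of genes without it, as a description. The lowest was AAACGAA, whose 501 genes had a median of -0.05 against -0.002 for the rest, and 61.5% of them lay below 0 against 50.4%. The next was AAAACGA and then came AACGAAA with AAAAACG after it, which all overlap the first, and the fifth was AAATCGA in 355 genes. ETV5 changed more than most genes with AAACGAA: 5 of the 501, ETV5 included, had a log2 change as low as its own. Its 10-base run AAAAACGAAA begins at base 829 of its 3′ UTR and is present in 33 of the genes searched. DUSP6, SPRY2, DUSP5 and SPRY4, which also fell, held 0 of the 5 low words, as did the 5 members that were not called. At the other end, AGCAACC stood highest (median 0.07), then GCAACCA (0.06) and then GCAACCC (0.04). Of these, SPRY4 holds AGCAACC and SPRY2 holds GCAACCA, although both fell. Words were ranked on the same changes that they describe, and what the words stand for was not tested.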
